A study of Bos taurus with 36 samples.

Results

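The liver of lactating dairy cows was compared between 9 h and 6 h after lipopolysaccharide (LPS) had been infused into the udder. The members are the 8 arrays of the 4 cows (cows 1, 3, 7 and 8) that were biopsied at both hours, out of 36 arrays in the series, and the arrays were paired by the animal. All 24128 probe sets of the bovine Affymetrix array were tested, and 9155 genes were read from the 13292 probe sets that name a single gene. The other 4 cows (cows 2, 4, 5 and 6) have an array at 9 h but none at 6 h, and these 4 arrays served only as a check. All 8 animals were healthy Holstein-Friesian cows in their 1st lactation, 9 to 12 weeks after calving. Each cow received 200 μg of E. coli LPS (0111:B4) in the right front gland and saline in the left front gland of the same udder. No cow without LPS was put on the arrays, so the hour after LPS, the time of day and the number of earlier biopsies cannot be told apart between the paired arrays. At 9 h the other 4 cows had fewer earlier biopsies, and the sets of cows are compared at that hour further below. The paper cites a separate control study of saline-infused cows, in which biopsy sampling altered neither clinical measures nor a chosen subset of genes. The tissue is a whole liver biopsy, in which fewer cells of a type and less RNA per cell cannot be told apart.

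LPS is the cell wall component of gram-negative bacteria, and it is sensed by Toll-like receptor 4, whose signal runs through NF-kappaB to cytokines, chemokines and adhesion molecules. The liver answers such a signal with the acute phase response, in which hepatocytes secrete large amounts of defence proteins and lower the output of carrier proteins, drug-metabolising enzymes and enzymes of lipid and bile acid metabolism. Inflammatory genes of the early wave are usually switched off again by short mRNA half-lives and by feedback inhibitors, whereas the machinery of protein synthesis and secretion is built up more slowly.

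Values are GCRMA values on the log2 scale, so a difference of 1 is a doubling. Values below 4 are close to the bottom of the scale, where the change of a gene is a lower bound, and the highest value on any array was 16.37. Changes are log2 differences, 9 h minus 6 h, with the standard error (SE) of a limma fit to the 24 arrays of the 4 cows over 6 hours with the cow as a block. A gene was called at an adjusted p (Benjamini-Hochberg over all probe sets) below 0.05. Array medians lay between 4.24 and 4.28 at 6 h and between 4.19 and 4.22 at 9 h. Of 10 hepatocyte markers limma called none (1 was higher and 2 lower at an unadjusted p below 0.05), and their mean level over the cows was 13.81 at 6 h and 13.66 at 9 h. The median change of the 10 markers was -0.12, with cow medians from -0.23 to -0.01, so the list leaned lower. The members given next are steadier ones, picked after their values were seen. Albumin (ALB) stood at 16.09 and 16.10 at 6 h and 9 h, close to the highest value, and its other probe sets are given further below. Transferrin (TF) stood at 15.42 and 15.39 and the urea cycle enzyme CPS1 at 14.20 and 14.10.

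Between 6 h and 9 h, 5255 of the 24128 probe sets (21.8%) were called, 2782 of them higher and 2473 lower, and 7146 had an unadjusted p below 0.05. Among the genes, 1627 of 9155 (17.8%) were higher at 9 h and 1169 (12.8%) were lower. The falls were larger than the rises. At least 2-fold were 350 of the higher genes (21.5%) and 469 of the lower ones (40.1%), and at least 4-fold were 37 and 90. The median change of the called genes was 0.68 for those that rose and -0.86 for those that fell, against 0.02 over all genes. The direction was the same in all 4 cows for 1581 of the higher and 1147 of the lower genes, and for 1301 and 875 of them the 4 values of one hour did not overlap with the 4 of the other. Over all 9155 genes, called or not, the hours did not overlap for 2658. With 1 cow left out, 18 arrays remained and 3749 to 4292 probe sets were called. In the 138 calls that named genes then lost, the change was 0.62 to 1.15 times (median 0.95) the one with all 4 cows.

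The 4 cows moved alike. Across the genes, the change in each cow correlated with the mean change of the other 3 at r between 0.83 (cow 3) and 0.862 (cow 1). This is a description over genes, which are not independent replicates. The changes were spread a little more widely in cows 8 and 3 (SD over genes 0.735 and 0.708) than in cows 1 and 7 (0.641 and 0.64).

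The hours before and after place this interval. In the same fit 2221 genes (24.3%) were higher and 2474 (27%) lower at 6 h than at 3 h, and 1317 (14.4%) were higher and 871 (9.51%) lower at 12 h than at 9 h. These comparisons share arrays with the one described here. A direct test asked whether the change from 6 h to 9 h differed from the change over the 3 h before, and it was more positive for 1437 genes (15.7%) and more negative for 1005 (11%). The change from 9 h to 12 h was more positive than that from 6 h to 9 h for 621 genes (6.78%) and more negative for 563 (6.15%). Over all probe sets the change after 6 h differed from that before it for 4939, and the change after 9 h for 2298. A different change need not be a reversal, because genes that went on in the same direction more slowly or faster are also counted. With 1 cow left out these counts were 3536 to 3903 and 1307 (without cow 3) to 1408 (without cow 7). The second count was 1407 without cow 1 and 1349 without cow 8.

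The 15 largest rises and the 15 largest falls were taken as examples among the called genes with the same direction in 4 cows and a mean value of at least 5 at one hour. The last gene taken on the rising side, KLF15, changed by 2.54 and the next one, TMEM101, by 2.50. On the falling side the last was P2RY13 with -3.24 and the next was CCL2 with -3.19. They fall into 5 kinds of time course, which were sorted by eye after their values were seen and are therefore only a way of ordering the description.

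**Figure D1:**
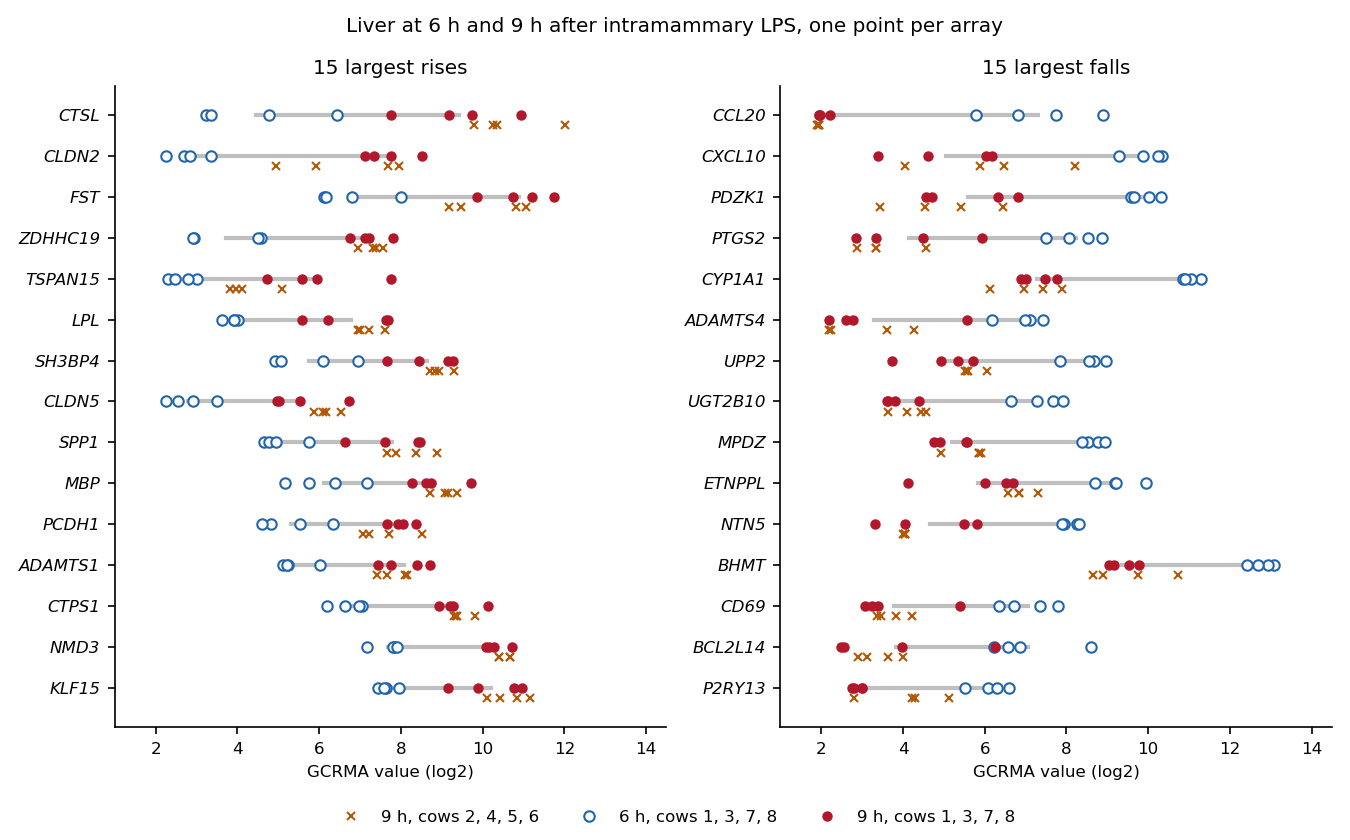
GCRMA values (log2, x axis) of the 15 genes with the largest rise and the 15 with the largest fall from 6 h to 9 h, 1 point per array. Open circles are the 4 cows at 6 h, filled circles the same cows at 9 h, grey bars join the 2 means, and crosses are the other 4 cows at 9 h. In 29 of the 30 genes the open and filled circles do not overlap, against 2658 of all 9155 genes. The 30 were chosen for large changes with the same direction in 4 cows, so this separation was largely set by the choice. In all 30 the crosses lie beyond the range of the open circles. The same 6 h values entered the choice of the 30, and the share of all genes with that trait was not counted, so this is no separate evidence.

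The first kind was lower at 6 h than at -22 h, 3 h and 9 h, by more than 1 in the means over the cows. Claudin 2 (CLDN2), a tight junction protein that forms paracellular pores, read 3.34, 2.68, 2.83 and 2.24 at 6 h in cows 1, 3, 7 and 8, and 8.52, 7.77, 7.33 and 7.11 at 9 h. Every cow was low at 6 h and the hours were far apart, with a change of 4.91 (SE 0.23, adjusted p = 2.65e-09, 30.1-fold). Its mean over the cows was 7.67 at -22 h, 8.01 at 3 h, 2.77 at 6 h, 7.69 at 9 h and 9.13 at 12 h. A second probe set of CLDN2 rose by 3.12.

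Claudin 5 (CLDN5), the claudin of endothelial junctions, read 2.90, 2.26, 2.54 and 3.51 at 6 h and 6.72, 5.01, 5.54 and 4.97 at 9 h (change 2.76, SE 0.33, adjusted p = 1.76e-05). It was at 6.76 at -22 h and 6.18 at 3 h, so that at 9 h it had not reached those means. The transcription factor KLF15, a regulator of amino acid and glucose metabolism, read 7.64, 7.43, 7.59 and 7.96 at 6 h and 9.89, 9.15, 10.77 and 10.97 at 9 h (change 2.54, SE 0.27, adjusted p = 6.01e-06). Its mean had been 11.18 at 3 h, it rose further to 11.38 at 12 h, and cow 3 had the lowest value at 9 h.

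NMD3, the adaptor that exports the large ribosomal subunit from the nucleus, moved in a narrow band, from 7.82, 7.18, 7.81 and 7.91 at 6 h to 10.28, 10.08, 10.16 and 10.72 at 9 h (change 2.63, SE 0.17, adjusted p = 8.15e-08). At 9 h it exceeded its mean of 9.49 at -22 h in every cow. The secreted metalloprotease ADAMTS1 (change 2.68, SE 0.43), the adhesion molecule PCDH1 (2.69, SE 0.32) and myelin basic protein (MBP; 2.71, SE 0.31) followed the same course. Their means were 7.95, 6.75 and 8.59 at 3 h, 5.39, 5.32 and 6.12 at 6 h, and 8.08, 8.01 and 8.83 at 9 h. ALAS1, the rate-limiting enzyme of heme synthesis, also rose after a deep fall. Its mean was 12.37 at -22 h, 10.34 at 3 h and 6.12 at 6 h, and it read 8.33, 7.69, 7.56 and 7.75 at 9 h (change 1.72, SE 0.29, adjusted p = 0.000336), so it stayed below its mean at -22 h in all 4 cows.

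The next kind climbed from a low baseline and stood higher at 9 h than at any earlier hour. Cathepsin L (CTSL), a lysosomal cysteine protease, read 4.77, 3.23, 6.44 and 3.36 at 6 h in cows 1, 3, 7 and 8, and 9.18, 7.76, 10.94 and 9.74 at 9 h. The change was 4.95 (SE 0.60, adjusted p = 1.96e-05), cow 8 gained most, and the hours did not overlap. It had stood at 3.06 at -22 h and 3.09 at 3 h, near the lower end of the scale. Follistatin (FST), a secreted inhibitor of activin, went from 6.13, 8.00, 6.16 and 6.80 to 9.87, 11.22, 10.74 and 11.74 (change 4.12, SE 0.51, adjusted p = 2.41e-05).

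Osteopontin (SPP1), a secreted phosphoprotein of matrix and inflammation, rose from 4.64, 4.78, 4.94 and 5.76 to 6.64, 8.46, 7.62 and 8.43 (change 2.76, SE 0.57, adjusted p = 0.00202). The palmitoyltransferase ZDHHC19 changed by 3.50 (SE 0.31) and the endocytic adaptor SH3BP4 by 2.87 (SE 0.34). TNFRSF6B, a decoy receptor that binds Fas ligand, was near the lower end of the scale at 3 h (mean 1.64). It read 8.47, 8.44, 8.29 and 9.21 at 6 h and 10.52, 10.65, 10.70 and 10.70 at 9 h (change 2.04, SE 0.12, adjusted p = 2.44e-08). Its mean at 6 h was 8.60, so the larger step lay before 6 h.

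A further 3 of the 15 rises began only after 6 h. The tetraspanin TSPAN15, a partner of the protease ADAM10, had means of 2.85, 2.64, 6.00 and 6.38 at 3, 6, 9 and 12 h (change 3.36, SE 0.35). Lipoprotein lipase (LPL), which frees fatty acids from circulating triglyceride, read 3.91, 3.61, 4.02 and 3.92 at 6 h and 5.58, 6.21, 7.69 and 7.64 at 9 h (change 2.92, SE 0.31, adjusted p = 6.14e-06). Cows 7 and 8 rose most, and no 9 h value overlapped with 6 h. CTPS1, which makes CTP for RNA and phospholipid synthesis, read 6.18, 7.06, 6.97 and 6.62 at 6 h and 9.19, 9.28, 8.93 and 10.12 at 9 h (change 2.67, SE 0.28, adjusted p = 5.38e-06).

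Among the falls were inflammatory genes that had been high at 3 h and 6 h. The chemokine CCL20 read 5.79, 8.89, 7.75 and 6.81 at 6 h and 1.95, 1.95, 2.22 and 1.97 at 9 h (change -5.29, SE 0.57, adjusted p = 7.04e-06). At 9 h every cow was back at the level of -22 h (mean 2.00), at the lower end of the scale. CXCL10, an interferon-induced chemokine of T cells, went from 9.87, 10.35, 10.25 and 9.29 to 4.62, 6.02, 6.18 and 3.40 (change -4.88, SE 0.92, adjusted p = 0.000955). PTGS2, the inducible enzyme of prostaglandin synthesis, went from 7.51, 8.87, 8.53 and 8.06 to 3.34, 4.50, 5.93 and 2.85 (change -4.09, SE 0.85, adjusted p = 0.00206), and at 12 h its mean was 6.47, with the cows spread from 2.82 to 9.87.

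The ADP receptor P2RY13 read 5.52, 6.59, 6.09 and 6.30 at 6 h and 2.76, 3.00, 3.00 and 2.79 at 9 h (change -3.24, SE 0.16, adjusted p = 2.74e-09). The leukocyte activation antigen CD69 changed by -3.28 (SE 0.65) and BCL2L14, a member of the BCL2 family, by -3.25 (SE 0.63). BCL2L14 is the exception among the 30 genes, because its 9 h value in cow 3 (6.25) reached into the range at 6 h (6.22 to 8.61). The aggrecan-cleaving protease ADAMTS4 changed by -3.65 (SE 0.88, adjusted p = 0.00611), with cow 7 still at 5.56 at 9 h against 2.18 to 2.78 in the other 3. Without cow 1 or without cow 3 ADAMTS4 was no longer called (-3.53, adjusted p = 0.0683, and -3.25, adjusted p = 0.0794), though the change stayed about as large.

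The last kind comprises metabolic and structural genes of the hepatocyte that had begun to fall by 6 h and fell on. PDZK1, the scaffold that holds the HDL receptor at the hepatocyte membrane, read 9.59, 10.31, 10.02 and 9.66 at 6 h and 4.56, 6.82, 6.33 and 4.71 at 9 h (change -4.29, SE 0.47, adjusted p = 7.07e-06). Cows 1 and 8 were lower than cows 3 and 7 at 9 h. The cytochrome CYP1A1 went from 10.86, 11.29, 11.05 and 10.91 to 7.00, 7.78, 7.47 and 6.90 (change -3.74, SE 0.29, adjusted p = 2.97e-07) and was back at 11.26 at 12 h. The glucuronosyltransferase UGT2B10 went from 6.64, 7.67, 7.29 and 7.92 to 3.61, 3.63, 4.38 and 3.80 (change -3.52, SE 0.24, adjusted p = 1.04e-07) and stayed at 3.40 at 12 h.

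BHMT, which remethylates homocysteine with betaine, read 13.07, 12.42, 12.94 and 12.68 at 6 h and 9.17, 9.53, 9.77 and 9.03 at 9 h (change -3.40, SE 0.25, adjusted p = 1.71e-07). A second probe set of BHMT changed by 0.10. Uridine phosphorylase 2 (UPP2; -3.58, SE 0.33), the tight junction scaffold MPDZ (-3.47, SE 0.26), the phosphoethanolamine lyase ETNPPL (-3.44, SE 0.42) and the netrin NTN5 (-3.43, SE 0.42) completed the group. From 9 h to 12 h CYP1A1, UPP2, NTN5, BHMT and ETNPPL rose again, by 3.97, 2.61, 2.27, 2.33 and 1.32 (adjusted p = 3.78e-07, 6.04e-05, 0.0013, 1.12e-05 and 0.0392). PDZK1, UGT2B10 and MPDZ were not called in that interval, with changes of -0.98, -0.46 and 0.44.

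**Figure D2:**
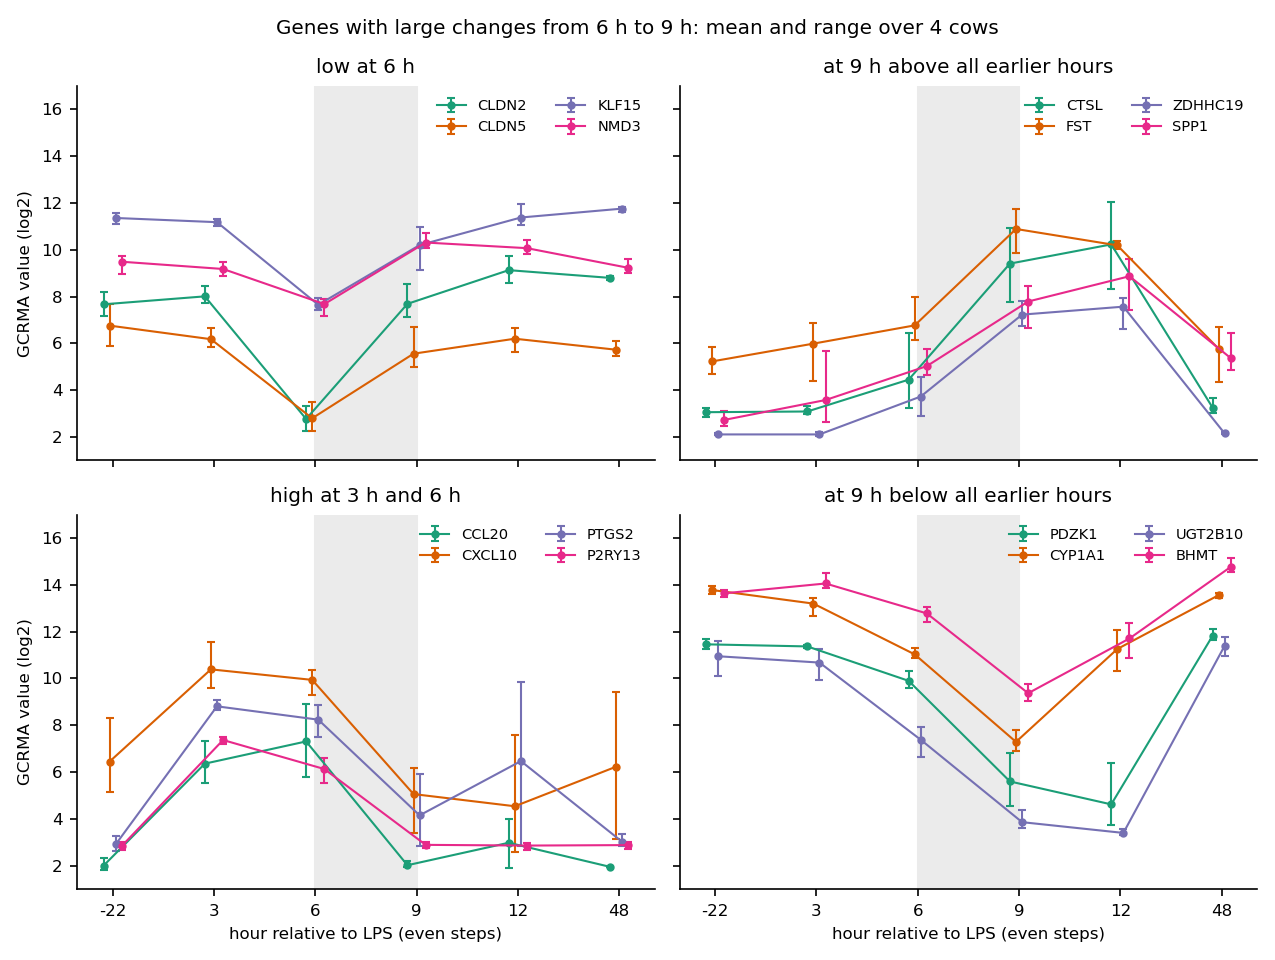
GCRMA values (log2, y axis) of 16 genes at the 6 sampling hours (x axis, even steps), with 1 line per gene. Points are means over cows 1, 3, 7 and 8 and bars run from the lowest to the highest cow, and the grey band marks 6 h to 9 h. CLDN2 dips to 2.77 at 6 h, CTSL climbs to 9.41 at 9 h, CCL20 drops to 2.02 at 9 h, and BHMT falls to 9.37 at 9 h and stands at 11.71 at 12 h.

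Lists of genes for 48 processes describe the change more widely. The share of their measured members that was called is read against the 17.8% of all genes that were higher and the 12.8% that were lower. The lists were chosen with earlier results of these arrays known, so a share above the background describes these arrays and is no separate evidence.

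**Figure D3:**
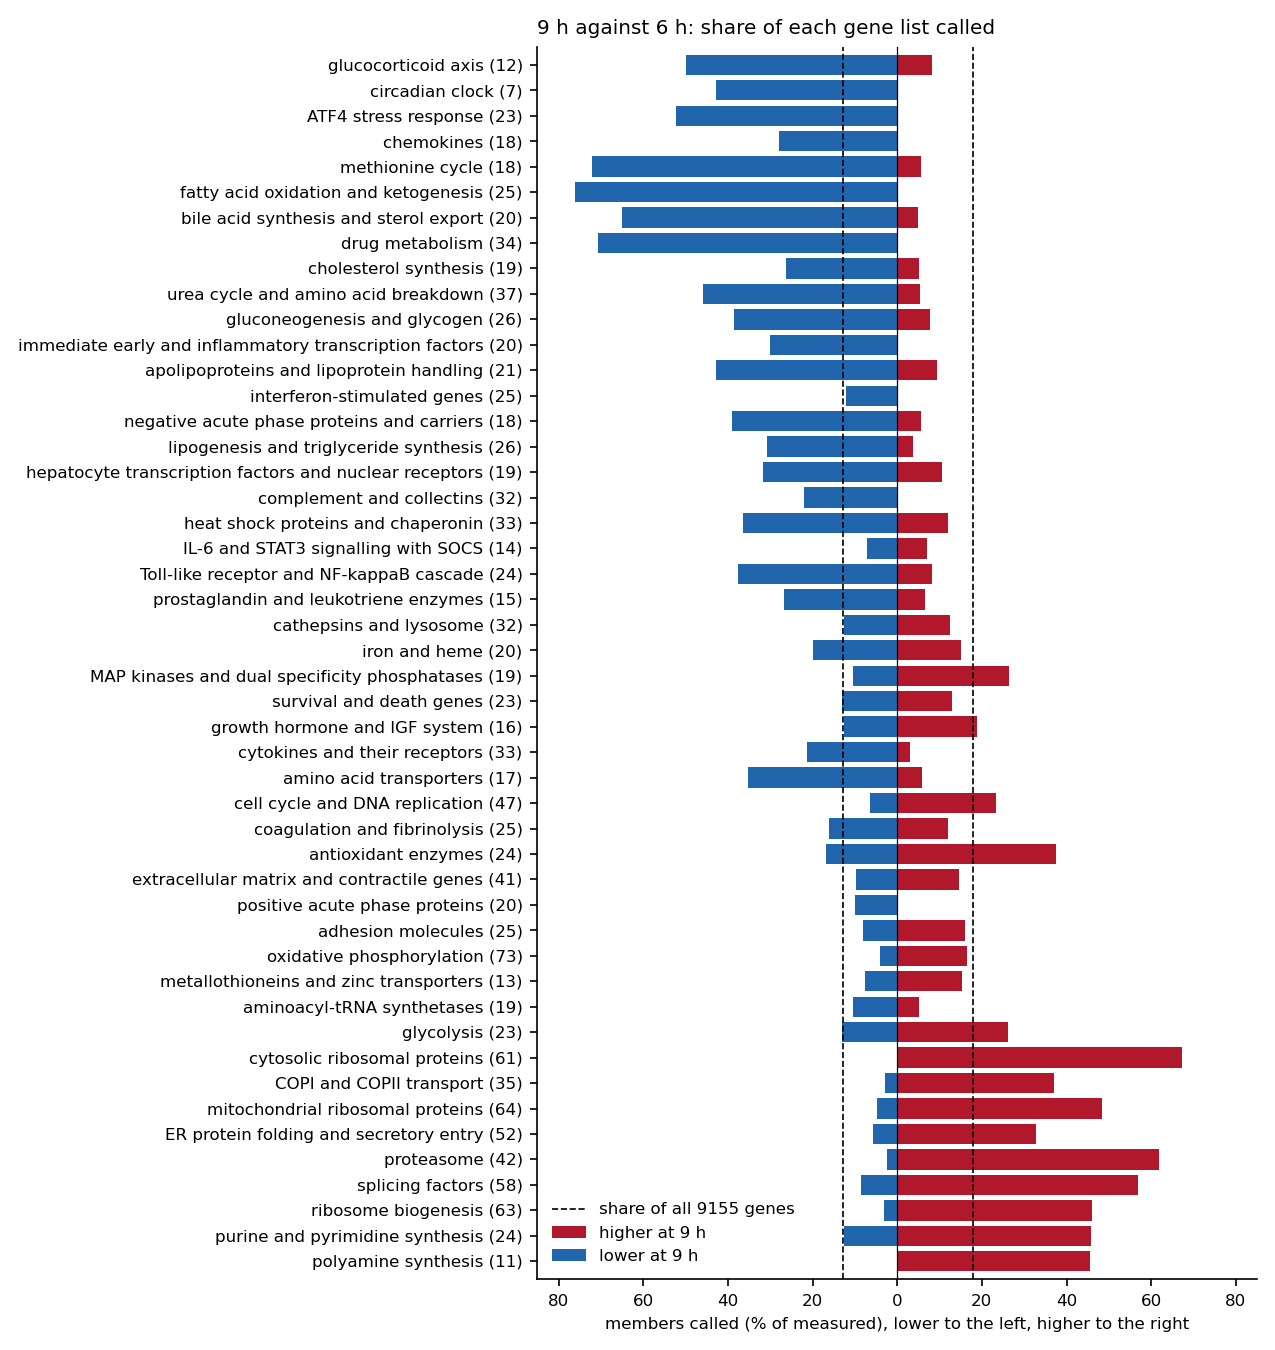
Share of the measured members of each of 48 gene lists called at 9 h against 6 h (x axis, percent, lower to the left in blue and higher to the right in red), with the number measured in brackets. Dashed lines mark the 12.8% lower and 17.8% higher among all 9155 genes, and the lists are sorted by median change. Fatty acid oxidation (76% lower), methionine cycle (72.2%) and drug metabolism (70.6%) lie far to the left, and cytosolic ribosomal proteins (67.2% higher) and the proteasome (61.9%) far to the right.

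The lists of inflammatory signalling held between 1 and 9 falls each and at most 2 rises. Of 18 chemokines 5 fell and none rose, with a median change of -0.72, and of 33 cytokines and their receptors 7 fell and 1, TNFRSF6B, rose. CXCL11, another T cell chemokine, read 6.11, 7.11, 6.76 and 6.03 at 6 h and 3.42, 5.06, 4.64 and 3.87 at 9 h (change -2.25, SE 0.39, adjusted p = 0.000488). CCL2, the main monocyte attractant, fell by 3.19 from a mean of 10.63 (adjusted p = 0.0122), but without cow 1 or cow 3 it was not called (adjusted p = 0.106 and 0.0979), and the chemokine count was then 3. With the mean of all probe sets of a gene in place of the brightest it was 8. Interleukin 1 beta (IL1B) changed by -1.21 (SE 0.23) and interleukin 10 (IL10) by -1.38 (SE 0.30), the latter from a mean of 4.44 at 6 h and not called without cow 8 (adjusted p = 0.0519). Without cow 3 the number of cytokine genes that fell was 4.

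Of 24 genes of the Toll-like receptor and NF-kappaB cascade 9 fell and 2 rose. The NF-kappaB subunits NFKB1 and NFKB2 changed by -1.81 (SE 0.30) and -2.19 (SE 0.37), and the receptor TLR4 by -1.83 (SE 0.37). NFKB1 read 9.42, 10.85, 10.29 and 9.65 at 6 h and 8.03, 8.62, 8.76 and 7.57 at 9 h, without overlap. The inhibitor NFKBIA, itself a target of NF-kappaB, changed by -1.51 (SE 0.36). TOLLIP, an inhibitor of Toll-like receptor signalling, rose from a mean of 12.11 to 12.74 (change 0.63, SE 0.14, adjusted p = 0.00266). Without cow 3 the cascade held 4 falls in place of 9 and NFKBIA was not called (adjusted p = 0.0565).

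Of 20 immediate early and inflammatory transcription factors 6 fell and none rose, with a median change of -0.26. CEBPD, a C/EBP factor of the acute phase, changed by -1.81 (SE 0.48), BCL3 by -1.20 (SE 0.27), ATF3 by -1.53 (SE 0.44) and MYC by -1.11 (SE 0.34). The count was 2 without cow 1 and 1 without cow 3. CEBPD had an adjusted p of 0.123 without cow 3, and those of ATF3 and MYC ran from 0.0616 to 0.16 and from 0.08 to 0.12 without cow 1, 3 or 8. Of 25 interferon-stimulated genes 3 fell (IFIT5, TAP1 and IRF9, by 1.16, 1.16 and 0.97), a share of 12% that is close to the background, and the count was 1 without cow 8. Of 15 prostaglandin and leukotriene enzymes 4 fell and 1 rose, and PTGES, the synthase that acts after PTGS2, changed by -2.26 (SE 0.48). Of 14 genes of IL-6 and STAT3 signalling SOCS2 fell (-0.99, SE 0.26) and STAT2 rose (0.73, SE 0.18). SOCS2 was not called without cow 1 (adjusted p = 0.0779), nor STAT2 without cow 7 (adjusted p = 0.0537).

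The acute phase proteins themselves changed little. Of 20 positive acute phase proteins limma called none higher (1 at an unadjusted p below 0.05), and the fallers were the pentraxin PTX3 (-2.51, SE 0.71, adjusted p = 0.0167) and the LPS receptor CD14 (-0.40, SE 0.11), which was not called without cow 3 or cow 8 (adjusted p = 0.0939 and 0.0987). PTX3 had a mean of 11.30 at 6 h, and without cow 1 or cow 8 it was not called (adjusted p = 0.0576 and 0.0974). Haptoglobin (HP), the main acute phase protein of cattle, read 15.84, 15.71, 15.78 and 15.77 at 6 h and 15.94, 15.93, 16.00 and 16.01 at 9 h. All 4 cows were higher at 9 h and the hours did not overlap, but the change of 0.20 had an SE of 0.88. That SE comes from the spread between cows at -22 h (SD 3.16), and in a fit to the 8 arrays of 6 h and 9 h alone it was 0.04 (adjusted p = 0.0297). STAT3, the transcription factor of IL-6 signalling, behaved in the same way, with 0.42 (SE 0.29, adjusted p = 0.402) and, from the 8 arrays, an adjusted p of 0.0101. Serum amyloid A3 (SAA3) changed by 0.17 (SE 0.27) and alpha-1-acid glycoprotein (ORM1) by 0.05 (SE 0.07). HP, ORM1 and ALB lie near the upper end of the scale, where further rises may not be seen in full.

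Of 18 negative acute phase proteins and carriers 7 fell and 1 rose. The cortisol carrier SERPINA6 read 8.61, 9.71, 9.92 and 10.10 at 6 h and 7.67, 8.92, 8.92 and 9.02 at 9 h, lower in each cow although the hours overlapped (change -0.95, SE 0.16, adjusted p = 0.000279). Without the cow as a block, over all 36 arrays, it was not called (-0.65, adjusted p = 0.189). Afamin (AFM) and the thyroxine carrier SERPINA7 each changed by -0.85 (SE 0.10 and 0.11), and the tocopherol transfer protein TTPA by -2.10 (SE 0.42). Of 32 complement and collectin genes 7 fell and none rose, among them the mannose-binding lectins MBL2 (-1.63, SE 0.18) and MBL1 (-0.67, SE 0.18) and the complement regulator C4BPB (-0.60, SE 0.11), while C3 changed by 0.06 (SE 0.07). The count of falls was 4 without cow 8, and without the cow as a block over 36 arrays it was 14 here and 4 among the carriers. MBL1 was not called without cow 7 or cow 8 (adjusted p = 0.0852 and 0.0624). Of 25 genes of coagulation and fibrinolysis 3 rose (12%, against 17.8% of all genes) and 4 fell (16%, against 12.8%), shares close to the background. The risers included thrombomodulin (THBD; 1.42, SE 0.46) and the fallers F13B (-0.57, SE 0.09) and protein C (PROC; -0.48, SE 0.09). None of the 3 rises was called without cow 1 or cow 3, where THBD had an adjusted p of 0.11 and 0.0954, and 2 falls were called without cow 8.

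Most of the metabolic lists held more falls than rises, glycolysis being an exception. Of 25 genes of fatty acid oxidation and ketogenesis 19 fell and none rose, with a median change of -0.67. ACOX2, the peroxisomal oxidase of branched fatty acids and bile acid intermediates, read 11.95, 12.29, 12.04 and 11.83 at 6 h and 10.28, 10.58, 10.38 and 10.53 at 9 h (change -1.58, SE 0.12, adjusted p = 1.83e-07). HSD17B4, the next peroxisomal enzyme, read 12.82, 12.55, 12.88 and 12.83 at 6 h and 11.56, 10.81, 11.32 and 11.52 at 9 h (change -1.47, SE 0.09). The mitochondrial carnitine enzyme CPT2 went from 8.52, 8.47, 8.81 and 8.85 to 7.55, 7.49, 7.35 and 7.55 (change -1.18, SE 0.11). In none of these did the hours overlap. The mean of the whole list, relative to the same cow at 6 h, was 0.65 at 3 h, -0.65 at 9 h (range over cows -0.76 to -0.58) and -0.79 at 12 h.

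Of 34 genes of drug metabolism 24 fell and none rose (median -0.54). Besides CYP1A1 and UGT2B10 these included the flavin monooxygenases FMO5 (-1.89, SE 0.17) and FMO1 (-1.62, SE 0.13), and the glutathione transferase GSTA2, at a mean of 15.01 at 6 h, changed by -0.34 (SE 0.06). Of 20 genes of bile acid synthesis and sterol export 13 fell and 1 rose. The racemase AMACR, needed to shorten the bile acid side chain, read 8.63, 9.28, 9.13 and 8.96 at 6 h and 5.98, 6.93, 5.73 and 5.89 at 9 h (change -2.87, SE 0.24, adjusted p = 5.53e-07). The basolateral bile acid exporter subunit SLC51B changed by -2.60 (SE 0.33) and the uptake transporter SLCO2B1 by -2.01 (SE 0.24).

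Of 18 genes of the methionine cycle and its folate branch 13 fell and 1 rose (median -0.71). MAT1A, which makes S-adenosylmethionine in the liver, read 10.66, 11.09, 11.38 and 11.04 at 6 h and 7.19, 7.80, 9.15 and 8.77 at 9 h (change -2.82, SE 0.30, adjusted p = 5.89e-06). Cows 1 and 3 fell further than cows 7 and 8. Cystathionine beta-synthase (CBS) changed by -1.30 (SE 0.20), and AHCY, the hydrolase of the cycle, by -0.25 (SE 0.07). AHCY was not called without cow 1 or cow 8 (adjusted p = 0.0559 and 0.0793). The mean of the list had hardly moved before, although single members had, BHMT downward and MTHFD2 upward. Relative to 6 h that mean was 0.08 at -22 h and 0.18 at 3 h, then -0.84 at 9 h (-0.95 to -0.74) and -0.74 at 12 h. The mitochondrial folate enzyme MTHFD2 took another course within the list, from 2.37 at 3 h to 5.97 at 6 h and 4.29 at 9 h (change -1.68, SE 0.21).

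Of 37 genes of the urea cycle and of amino acid breakdown 17 fell and 2 rose (median -0.46). Serine dehydratase (SDS), which feeds serine into gluconeogenesis, was 1 of those that rose. It read 9.32, 10.78, 9.85 and 11.02 at 6 h and 11.44, 13.27, 12.19 and 13.27 at 9 h (change 2.30, SE 0.57, adjusted p = 0.00738), and without cow 3 or cow 7 its adjusted p was 0.0547 and 0.05. The liver glutaminase GLS2 changed by -2.14 (SE 0.27), homogentisate dioxygenase (HGD) by -1.54 (SE 0.15) and DBT, a subunit of the branched-chain keto acid dehydrogenase, by -1.46 (SE 0.19). Of 26 genes of gluconeogenesis and glycogen 10 fell and 2 rose, among them PPP1R3B, the glycogen-targeting phosphatase subunit (-1.37, SE 0.27), and PCK2 (-1.22, SE 0.15). PCK1, the cytosolic enzyme of that step, changed by -0.50 (SE 0.18, adjusted p = 0.0508), with an adjusted p of 0.0167 without cow 7, and G6PC1, the last enzyme of glucose release, rose by 0.98 (SE 0.22, adjusted p = 0.0038).

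Of 23 genes of glycolysis 6 rose and 3 fell. The glucose transporter SLC2A1 and aldolase A (ALDOA) changed by 1.43 (SE 0.26) and 1.18 (SE 0.13), and the liver pyruvate kinase PKLR by -1.78 (SE 0.32). Of 26 genes of lipogenesis and triglyceride synthesis 8 fell and 1 rose, with the elongase ELOVL6 at -2.42 (SE 0.41) and the acyltransferase GPAM at -2.25 (SE 0.28). Of 19 genes of cholesterol synthesis 5 fell and 1 rose. Their median change ran from -1.04 to -0.01 over the cows, cow 8 being the one with -0.01, and without cow 8 the number that fell was 9. Of 21 apolipoproteins and genes of lipoprotein handling 9 fell and 2 rose, with the assembly protein MTTP at -1.95 (SE 0.25) and APOA5 at -0.88 (SE 0.16), while the HDL receptor SCARB1 rose by 0.62 (SE 0.09).

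Lists of regulators differed among themselves. Of 19 hepatocyte transcription factors and nuclear receptors 6 fell and 2 rose. NR2F1 read 5.33, 4.37, 4.54 and 5.48 at 6 h and 7.02, 6.64, 6.93 and 7.43 at 9 h (change 2.07, SE 0.23), and HNF4G changed by -1.96 (SE 0.22), each returning to near its mean at 3 h (6.61 and 7.05). The coactivator PPARGC1A changed by -0.25 (SE 0.30), but 2 of its other probe sets were called higher, so its direction is not settled here. Of 12 genes of the glucocorticoid axis 6 fell and 1, the kinase SGK1 (1.61, SE 0.32), rose. Its fallers were the cell cycle inhibitor CDKN1A (-2.25, SE 0.70), the pyruvate dehydrogenase kinase PDK4 (-2.20, SE 0.59) and the receptor cochaperone FKBP5 (-1.64, SE 0.29) among others, and the count was 2 without cow 1 or without cow 3. CDKN1A then had an adjusted p of 0.11 and 0.202, and PDK4 one of 0.0925 and 0.0959. Of 7 circadian clock genes 3 fell, HLF (-1.75, SE 0.18), RORA (-1.69, SE 0.32) and NFIL3 (-1.13, SE 0.34), and time of day moved together with the hour after LPS. NFIL3 was not called without cow 3 or cow 8 (adjusted p = 0.115 and 0.165), and the mean of all RORA probe sets was not called either (-0.62, adjusted p = 0.0687). Of 16 genes of the growth hormone and IGF system 3 rose and 2 fell, shares close to the background, the latter being the prolactin receptor PRLR (-1.35, SE 0.19) and IGFALS (-1.22, SE 0.27).

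The mean levels of 2 stress lists were highest at 6 h. Of 23 genes of the ATF4 stress response 12 fell and none rose (median -0.73), and for 14 the change was more negative than that from 3 h to 6 h. HERPUD1, a component of the degradation machinery of the endoplasmic reticulum (ER), read 13.84, 13.82, 14.23 and 13.81 at 6 h and 11.44, 11.49, 12.64 and 9.56 at 9 h (change -2.64, SE 0.50, adjusted p = 0.000898). Cow 8 fell most and cow 7 least. The sestrin SESN2 changed by -2.70 (SE 0.65), and the serine synthesis enzyme PSAT1 by -1.75 (SE 0.29), the latter from means of 12.93 at 3 h and 11.75 at 6 h. Without cow 3 only 4 of the 23 were called, and SESN2 was not (adjusted p = 0.0898).

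Of 33 heat shock proteins and chaperonin subunits 12 fell and 4 rose. HSPH1, a nucleotide exchange factor of HSP70, read 14.29, 15.01, 14.62 and 14.12 at 6 h and 11.60, 11.96, 13.26 and 10.21 at 9 h (change -2.75, SE 0.61, adjusted p = 0.00329). The constitutive HSPA8 read 15.80, 15.90, 15.90 and 15.86 at 6 h, near the upper end of the scale, and 14.34, 14.78, 15.00 and 13.80 at 9 h (change -1.38, SE 0.33). In both genes cow 7 kept the highest value at 9 h. For 23 of the 33 members the change was more negative than that from 3 h to 6 h, and the mean of the list relative to 6 h was -1.14 at 3 h, -0.48 at 9 h (-0.66 to -0.25) and -0.73 at 12 h. The count of falls was 4 without cow 3, where HSPH1 had an adjusted p of 0.0559, and 6 without cow 8, where HSPA8 had one of 0.0795.

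Ribosomal proteins were among the lists with the highest share of rises. Of 61 cytosolic ribosomal proteins 41 rose and none fell, by small amounts (median 0.28). RPS21, a protein of the small subunit, read 12.76, 12.75, 12.93 and 13.03 at 6 h and 13.35, 13.31, 13.47 and 13.55 at 9 h (change 0.56, SE 0.10, adjusted p = 0.000474), and no value overlapped. The large subunit proteins RPL8 and RPL12 changed by 0.54 (SE 0.07) and 0.52 (SE 0.08). The mean of the list relative to 6 h was -0.11 at 3 h, 0.27 at 9 h (0.22 to 0.34) and 0.47 at 12 h. After centring each array on its median 36 of the 61 rose, and without cow 3 the count was 25.

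Of 63 genes of ribosome biogenesis 29 rose and 2 fell (median 0.42). Besides NMD3 these included the nucleolar factors NOP14 (1.53, SE 0.11), SDAD1 (1.32, SE 0.21) and NOC2L (1.21, SE 0.17). Nucleolin (NCL), the most abundant of them, read 12.94, 12.87, 13.09 and 12.94 at 6 h and 13.39, 13.43, 13.44 and 13.70 at 9 h (change 0.53, SE 0.10). For 38 members the change from 6 h to 9 h was more negative than that from 3 h to 6 h, and for 22 the change from 9 h to 12 h was more negative again. The mean of the list relative to 6 h was -1.46 at 3 h, 0.48 at 9 h (0.37 to 0.52) and 0.06 at 12 h.

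Of 64 mitochondrial ribosomal proteins 31 rose and 3 fell. MRPL43 read 7.08, 7.37, 7.52 and 7.71 at 6 h and 8.28, 8.62, 8.67 and 9.32 at 9 h (change 1.30, SE 0.16), and MRPL23 changed by -0.81 (SE 0.11). Without cow 3 the number that rose was 18. Of 73 subunits of oxidative phosphorylation 12 rose, a share close to the background, and 3 fell, with 6 rises without cow 1 or cow 3, and for 20 the change was more positive than that from 3 h to 6 h. Of 19 aminoacyl-tRNA synthetases 1 rose and 2 fell, and for 11 the change was more negative than that from 3 h to 6 h. None of these 3 was called without cow 3. TARS1, the most abundant, had means of 12.17, 14.21 and 14.24 at 3, 6 and 9 h.

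Of 42 proteasome subunits and regulators 26 rose and 1 fell (median 0.37). PSMB10, a catalytic subunit of the immunoproteasome, read 7.71, 8.63, 7.31 and 7.85 at 6 h and 9.06, 10.09, 8.85 and 8.85 at 9 h (change 1.34, SE 0.25, adjusted p = 0.000802). The assembly chaperones PSMD5 and PSMD9 changed by 1.20 (SE 0.20) and 1.18 (SE 0.15), and without cow 3 the number that rose was 16. Of 58 splicing factors 33 rose and 5 fell (median 0.41), with SNRPA1 at 0.97 (SE 0.09) and SRSF6 at 1.03 (SE 0.16) against TRA2A at -1.01 (SE 0.10), and 2 falls were called without cow 3. Of 52 genes of ER protein folding and secretory entry 17 rose and 3 fell, and of 35 genes of COPI and COPII transport 13 rose and 1 fell. These counts were 11 and 7 over all 36 arrays without the cow as a block, and 7 and 5 without cow 3. Without cow 1 they were 11 and 7, without cow 8 the folding count was 6, and without cow 7 the transport count was 7. EDEM2, which takes misfolded glycoproteins to degradation, changed by 0.97 (SE 0.23), and the vesicle cargo receptor TMED9 by 0.67 (SE 0.15). The largest called change in each of these lists was a fall, that of HERPUD1, described above, and that of COPZ2 (-0.79).

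Nucleotide and polyamine synthesis held more rises than falls. Of 24 genes of purine and pyrimidine synthesis 11 rose and 3 fell (median 0.42). CAD, which starts pyrimidine synthesis, had means of 6.74, 7.18, 8.63 and 8.49 at 3, 6, 9 and 12 h (change 1.45, SE 0.18, adjusted p = 2.98e-05), and the urate oxidase UOX changed by -1.41 (SE 0.17). Of 11 genes of polyamine synthesis 5 rose and none fell, among them spermidine synthase (SRM; 1.48, SE 0.34), ornithine decarboxylase (ODC1; 1.34, SE 0.26) and the liver arginase ARG1 (0.80, SE 0.12), and 3 were called without cow 3. Of 17 amino acid transporters 6 fell and 1 rose, with SLC1A4 at -2.20 (SE 0.45) and SLC7A9 at -1.87 (SE 0.35).

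**Figure D4:**
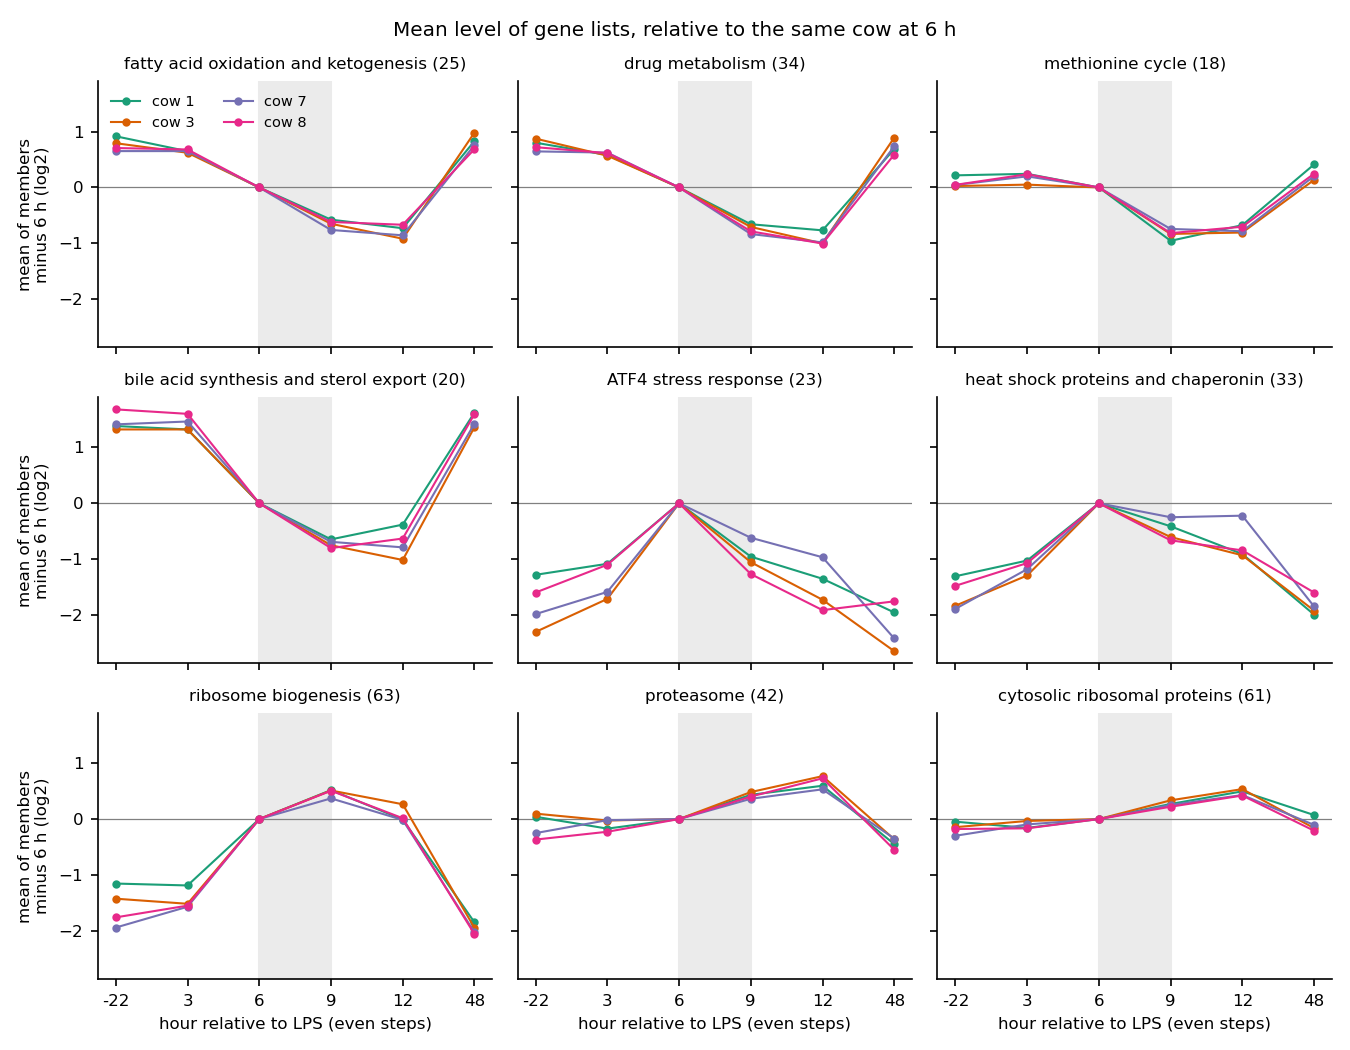
Mean level of the measured members of 9 gene lists (log2, y axis, relative to the same cow at 6 h) at the 6 sampling hours (x axis, even steps), with 1 line per cow and the number of members in brackets. The grey band marks 6 h to 9 h. In that band all 4 lines fall for fatty acid oxidation (-0.65 on average), drug metabolism (-0.75), methionine cycle (-0.84), bile acid synthesis (-0.72), the ATF4 stress response (-0.97) and heat shock proteins (-0.48), and all 4 rise for ribosome biogenesis (0.48), the proteasome (0.42) and cytosolic ribosomal proteins (0.27).

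The remaining lists held few changes or changes in both directions. Shares close to the background were found for the genes of iron and heme, lysosome, survival and death, adhesion and matrix. Among these lists 12.5% to 16% of members rose and 8% to 20% fell, against 17.8% and 12.8% of all genes. Of 24 antioxidant enzymes 9 rose (37.5%, against 17.8% of all genes) and 4 fell (16.7%, against 12.8%). The mean of this list was 0.30 above that at 6 h (0.26 to 0.38 over the cows). Sulfiredoxin (SRXN1) changed by 1.75 (SE 0.25) and the quinone reductase NQO1 by -1.22 (SE 0.13). Of 20 genes of iron and heme 3 rose and 4 fell, and of 13 metallothioneins and zinc transporters 2 rose and 1 fell. Of 32 cathepsins and lysosomal genes 4 rose and 4 fell, and apart from CTSL the changes were small. Of 19 MAP kinases and dual specificity phosphatases 5 rose and 2 fell, with MAPKAPK3 at 1.51 (SE 0.16), and 1 fall was called when any 1 cow was left out. Of 23 survival and death genes 3 rose and 3 fell, with BCL2A1 at -2.48 (SE 0.37) and BAK1 at 1.50 (SE 0.25). Of 25 adhesion molecules 4 rose and 2 fell, among them the leukocyte receptor ADGRE5 (1.29, SE 0.23) and ICAM1 (-1.15, SE 0.28, with an adjusted p of 0.0546 without cow 3). Of 41 genes of extracellular matrix and contractile apparatus 6 rose and 4 fell. Of 47 cell cycle and DNA replication genes 11 rose (23.4%) and 3 fell (6.38%), with a median change of 0.01. The replication helicase subunit MCM6 changed by 1.92 (SE 0.28), while CDKN1A, described above, had the largest called change and fell. For 27 of the 47 the mean value was below 5 at both hours. Some of these small counts were lower in the fits with 1 cow fewer. Without cow 1 or cow 3, 1 rise each was called among the adhesion and lysosomal genes, and the latter was also 1 without cow 7. Without cow 3 the metallothioneins and zinc transporters had no rise, iron and heme 1, and the matrix genes no fall. Without cow 8, 2 falls were called among the genes of iron and heme and 2 among the lysosomal genes, and the antioxidant enzymes had 1 fall without cow 1 and 2 without cow 3 or cow 7.

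Lists of markers of other cells each held 0 to 3 called genes. Of 10 Kupffer cell and macrophage markers MSR1 rose (0.81, SE 0.20) and CD5L fell (-0.45, SE 0.09). The median change of that list was -0.11 (cow medians -0.20 to -0.06). Of 11 neutrophil markers FCGR3A fell (-0.59, SE 0.14), and S100A8 changed by 0.72 (SE 0.43, adjusted p = 0.326). The mean of the neutrophil list was 0.30 above that at 6 h (0.02 to 0.72 over the cows), and its median change was 0.02. The part of this list in other results was not tested. Of 12 endothelial markers PECAM1 rose (0.61, SE 0.18), whereas the median change of the list was -0.08 (cow medians -0.28 to -0.01). At an unadjusted p below 0.05 limma had 1 endothelial marker higher and 3 lower. Of 12 stellate cell and fibroblast markers LRAT rose (1.46, SE 0.18) and PDGFRA and DES fell (-1.22, SE 0.36 and -0.85, SE 0.21). Of 6 bile duct markers SPP1 rose by 2.76, and the mean of that list was 0.34 above that at 6 h (0.31 to 0.41). Its median change was only 0.02 (cow medians -0.01 to 0.07), so the mean does not stand for the list. At an unadjusted p below 0.05 limma had 1 member higher, SPP1, and 1 lower. The calls of MSR1, FCGR3A, PECAM1, PDGFRA and DES each ended without at least 1 cow (adjusted p = 0.076 to 0.104 for MSR1 without cow 8 or 7, 0.0606 and 0.0857 for FCGR3A without cow 1 or 7, 0.0653 to 0.136 for PECAM1 without cow 1, 3 or 8, 0.1 to 0.141 for PDGFRA without cow 1, 3 or 8, and 0.0899 for DES without cow 8). CD5L, FCGR3A, PDGFRA and DES were also not called over 36 arrays without the cow as a block. Of 16 T and natural killer cell markers, 6 B and plasma cell markers and 7 red cell markers limma called none and had none at an unadjusted p below 0.05, and the median level of these lists at 9 h was 3.56, 3.71 and 2.35, near the lower end of the scale. Whether cells had entered or left the tissue was not tested.

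The other 4 cows show on which side of baseline each gene stood at 9 h, from arrays that the comparison of 9 h with 6 h did not use. In them 2544 genes (27.8%) were higher at 9 h than at -22 h and 2361 (25.8%) were lower. Of the 2544 that stood above baseline, 1006 (39.5%) had risen and 137 (5.39%) had fallen from 6 h to 9 h in the paired cows. Of the 2361 that stood below it, 843 (35.7%) had fallen and 191 (8.09%) had risen. Of the 4250 not called there, 430 (10.1%) had risen and 189 (4.45%) had fallen. Median changes from 6 h to 9 h in these classes were 0.33, -0.23 and 0.01. CTSL (7.64 above baseline in the other cows), FST (5.20), UGT2B10 (-7.13), CYP1A1 (-6.80) and PDZK1 (-6.71) stood far from baseline at 9 h on the side to which they had moved. CCL20 (0.04), CXCL10 (-0.68) and MBP (-0.04) had moved by large steps and stood near baseline.

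**Figure D5:**
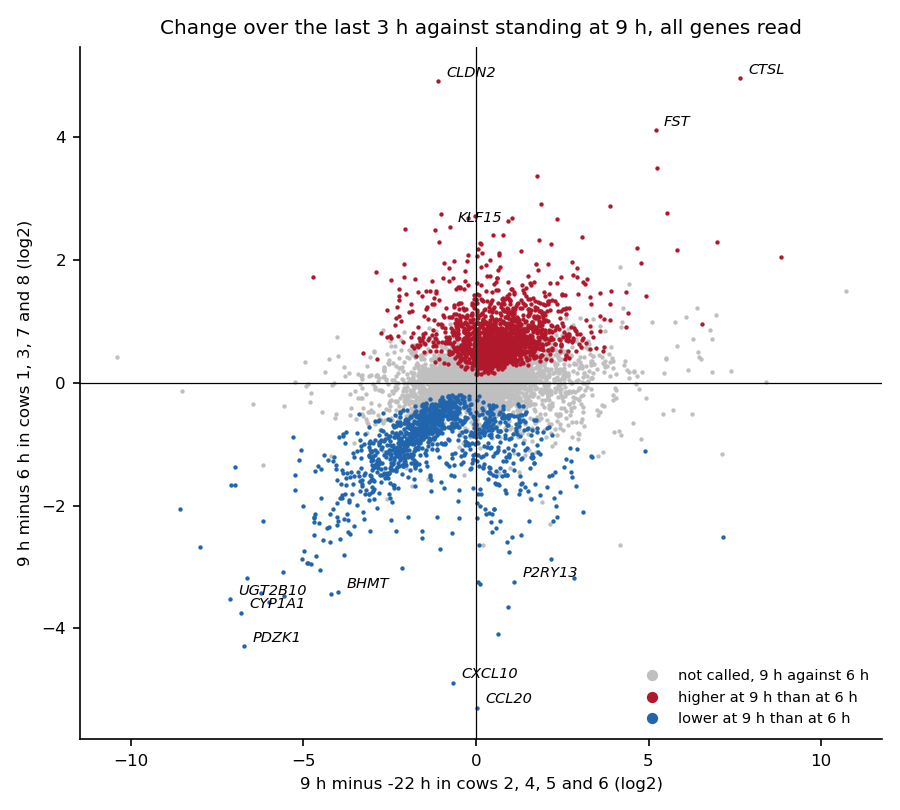
Each point is 1 of 9155 genes, with the log2 difference of 9 h minus -22 h in cows 2, 4, 5 and 6 on the x axis and that of 9 h minus 6 h in cows 1, 3, 7 and 8 on the y axis. Red and blue points were called higher and lower at 9 h than at 6 h, and grey points were not called. CTSL and FST lie at the upper right, UGT2B10, CYP1A1 and PDZK1 at the lower left, and CLDN2 and CCL20 far from 0 on the y axis and nearer to it on the x axis.

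At 9 h itself the cows sampled at 6 h and the other cows differed for 28 of 24128 probe sets (0.116%), 5 higher and 23 lower in the cows sampled at 6 h. None of the 30 genes described above was among them, but with 28 of 24128 called this would hold for almost any 30 genes. The largest differences were those of the transcription factors CUX2 (-3.30, SE 0.46) and IRX3 (-2.91, SE 0.54), of OLFM4 (-2.52, SE 0.46) and of SFRP1 (-2.21, SE 0.41). At an unadjusted p below 0.05 there were 1859. When the change since -22 h was compared in place of the level at 9 h, 1 probe set differed. The count of 28 became 56 without cow 1 and 51 without cow 2. The cows sampled at 6 h had also been biopsied at 3 h, so earlier biopsies and the animals themselves cannot be told apart in this check.

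A gene was read through its brightest probe set, and others of the same gene did not always move with it. Of the 2913 genes with several probe sets, 958 were called. In 406 of these another probe set was called in the same direction, and in 17 another was called in the opposite one. The clearest case among the genes the study names is GRO1, a neutrophil chemokine whose brightest probe set changed by 0.01 (SE 0.33). Its other 3 probe sets fell, by 3.38 to 4.45, and the mean of all changed by -2.89 (adjusted p = 0.00156). The other probe sets of ALB changed by -1.01 to 0.37, and their mean with the brightest by -0.23 (adjusted p = 0.0395). Of 42 genes that the study names and that were measured, 4 rose (TOLLIP, ADGRE5, SCARB1 and G6PC1), 16 fell and 22 were not called. Over all genes 17.8% rose and 12.8% fell. The study named most of the 42 for changes over the hours on these same arrays, so calls among them were partly set by that choice.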

How the data were processed

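Liver RNA of 8 cows was hybridised to 36 Affymetrix bovine arrays. The authors background-corrected, quantile-normalised and summarised the probe intensities with GCRMA in R, and the deposited values are on the log2 scale. No scanner files were used, and the number of arrays limits the precision. Quantile normalisation gives all arrays nearly the same distribution, so a change common to most genes would not be seen.

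From these values, limma 3.58.1 (R 4.3.3, Python 3.11.15 for the rest) was fitted to the 24 arrays of the 4 cows with 6 h arrays, with a mean per hour and the cow as a fixed block. Tests were two-sided. Each gene is represented by its brightest probe set (mean of 36 arrays), taken from those that carry no second gene name. Of the 24128 probe sets, 86 name several genes, 10724 are not in the gene table and 112 are controls. Named are the 15 largest rises and falls, up to 4 called members and the most abundant member of each list, and genes named by the study. ALB, TF and CPS1 as hepatocyte markers, TMEM101 and the genes that differed between the sets of cows were named after their values were seen. Members and lists were chosen with earlier results of these data known. Of 1819 list entries, 1398 were measured.

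Pairing came from the animal id. Deviations from the mean of the hour correlated within cows at r = 0.518 on average (0.418 to 0.592) and between cows at -0.171. Such deviations cancel over the cows of an hour, so the negative value between cows follows from the first and is no separate evidence. The numbers in the array titles do not follow the animals at 6 h and were used only as an alternative. No pair of arrays was a duplicate (highest correlation 0.9945). The biopsies of a cow are repeated samples of that animal, and n is the number of cows. Alternatives changed the block, the arrays, the scaling, the filter on dim probe sets, the variance prior, array weights, the threshold and the reading of genes with several probe sets. Sequences were not used here.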

Additional observations from a re-analysis of the deposited data

Results flagged for a closer look

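In 87 groups of 4 cow values (changes of the 30 genes and medians of the lists), 3 held a cow far from the other 3 by Dixon's criterion, which chance alone gives for about 1 group in 20. The rise of CTSL was 6.38 in cow 8 and 4.41 to 4.53 in the other 3 cows. The median change of the interferon-stimulated genes was -0.13 in cow 7 and -0.21 to -0.20 in the others. The median change of the red cell markers was 0.06 in cow 8 and -0.01 to 0.00 in the others, at levels near the lower end of the scale.

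The change from -22 h to 9 h differed between the cows sampled at 6 h and the other cows for 1 probe set without a gene name, by -0.47 (SE 0.058, limma, Benjamini-Hochberg over all probe sets).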

How the results depend on the processing

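Of the 84 recomputed counts of the comparisons, 71 stayed within 1.5 times the value reported. Counts of 9 h against 6 h were 5255 with the cow as a replicate block (paired arrays), 4279 without it on the same 24 arrays and 5884 without it on all 36. Further values were 6213 and 6292 with a fixed or random replicate block on 36 arrays, 5116 on the 8 arrays alone, 6076 with the title numbers as replicate block, and 5282 with the other cows' 9 h arrays. They were 5418 and 5444 with median centring and renewed quantile normalisation, 5340 with the dim filter, 5111 with a trended prior and 7177 with array weights. Without 1 cow they ran from 3749 to 4292. Bonferroni below 0.01 left 450 (166 higher, 284 lower), and a change of at least 2-fold left 1804 (665 higher, 1139 lower), both by their stricter construction.

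The test for a different change after 9 h called 1307 to 1408 probe sets without 1 cow, against 2298. The 28 differences between the sets of cows became 1 for the change from -22 h and 23 to 56 without 1 cow, and the cause was not tested. Reading a gene by the mean of its probe sets gave a call to ALB (-0.23) and GRO1 (-2.89), whose brightest probe sets changed by 0.01 each and were not called. For the 15 rises and 15 falls, 208 of 210 alternatives kept the call, the exceptions being ADAMTS4 without cow 1 or 3. Of 798 recomputed list counts 147 moved by over 1.5 times, many of them counts of 1 to 3. Among all genes named, 161 of 1918 values lost the call and 19 gained it. Changes at values below 4, near the lower end of the scale, are lower bounds.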
